A study of Sus scrofa with 6 samples.

Results

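LMO1, LMO2, LDB1 and LDB2, genes of the LIM-only proteins and of the adaptor proteins that bind them, were followed through brain messenger RNA of wild boars and Rongchang pigs. The set was drawn up as 8 genes, LMO1 to LMO4, LDB1, LDB2, SSBP2 and SSBP3, and a member was kept where a symbol paired it with an Ensembl pig identifier in the deposited table. This held for 4 of the 8, out of 18225 identifiers listed. LMO3, LMO4, SSBP2 and SSBP3 were paired with no identifier of the table and were not analysed here. LMO1 had been picked because its values were lower in wild boars, so its difference between the breeds is given as a description without a test, while the other members entered the set as its relatives and partners.

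The samples were brains of 3 wild boars and brains of 3 Rongchang pigs, a domesticated Chinese breed. All 6 animals were 210 days old, and each gave 1 library of polyadenylated RNA. The labels name the tissue as brain with no region, and say nothing of the sex of the animals, of treatment, or of where the wild boars were obtained.

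LIM-only (LMO) proteins consist of a pair of tandem LIM domains, zinc-binding folds that bind other proteins and not DNA. They act in the nucleus by joining the LIM-domain binding proteins LDB1 and LDB2, which self-associate and so bring together transcription factors bound at separate sites. LDB proteins also bind the LIM domains of LIM-homeodomain transcription factors, and LMO proteins compete for that contact. SSBP proteins bind LDB proteins and protect them from degradation. In the mammalian nervous system LMO and LIM-homeodomain genes are known for region- and neuron-type-restricted expression. LMO1 and LMO2 are also known as oncogenes of T-cell leukaemia.

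Values are FPKM, fragments per kilobase of transcript with the total of mapped fragments scaled out, as deposited. FPKM is scaled by transcript length, so levels of different genes can be set side by side. It carries no read counts, and the depth of each library is unknown. Between 16510 and 17090 genes had a value above 0 per library. The neuronal gene SNAP25 and the astrocyte gene GFAP were abundant in every library, and the cerebellar receptor gene GABRA6 stayed at or below 0.185 FPKM. In a principal component analysis of the genes tested, the first component set wild boar 2 and Rongchang 2 apart from the remaining animals.

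The 4 genes kept nearly the same order in every library. The adaptor genes LDB1 and LDB2 were highest, LMO2 was next and LMO1 lowest. LDB1 averaged 14.4 ± 2.33 FPKM in wild boars and 16.3 ± 1.25 in Rongchang pigs (SD, n = 3 each). LDB2 averaged 13.0 ± 2.41 FPKM in wild boars and 14.8 ± 2.17 in Rongchang pigs. These 2 neighbours were not separated, since LDB1 was above LDB2 in only 4 of 6 libraries. LMO2 was below both LDB genes in 6 of 6 libraries, and LMO1 was below LMO2 in 6 of 6.

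LMO1 encodes a LIM-only protein of neurons and of T-cell leukaemia. It was at 3.33, 2.96 and 2.58 FPKM in wild boars 1, 2 and 3, against 5.16, 5.54 and 5.84 FPKM in Rongchang pigs 1, 2 and 3. The highest wild boar lay below the lowest Rongchang pig, so the breeds did not overlap. The mean was 2.96 ± 0.374 FPKM in wild boars and 5.51 ± 0.339 in Rongchang pigs, and the wild boar mean was thus 53.7% of the Rongchang mean. On the log2(FPKM + 1) scale the fold change, wild boar minus Rongchang, was −0.72 (SE 0.14). The test covered 13152 genes that reached 1 FPKM in 3 or more libraries, and 1.40% of them had a lower fold change than LMO1. Of the same genes, 11.4% had all wild boars below all Rongchang pigs, and nothing is read from LMO1 being among them, because it was picked on this contrast.

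The rank of LMO1 among the genes of a library does not depend on how a library is scaled. That rank and the fold changes below restate the values on which LMO1 was picked, and add no support. LMO1 was above 45.0% to 49.1% of the listed genes in wild boars and above 56.4% to 58.1% in Rongchang pigs. LMO1 thus lay just below the median gene of each wild boar library and just above the median gene of each Rongchang library. Leaving out each library in turn gave fold changes of −0.79 to −0.65. The median fold change of all genes tested was −0.13, and LMO1 lay −0.59 from it. After every library was scaled to the same median, which moved the median gene to 0.015, LMO1 stood at −0.58.

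**Figure D1:**
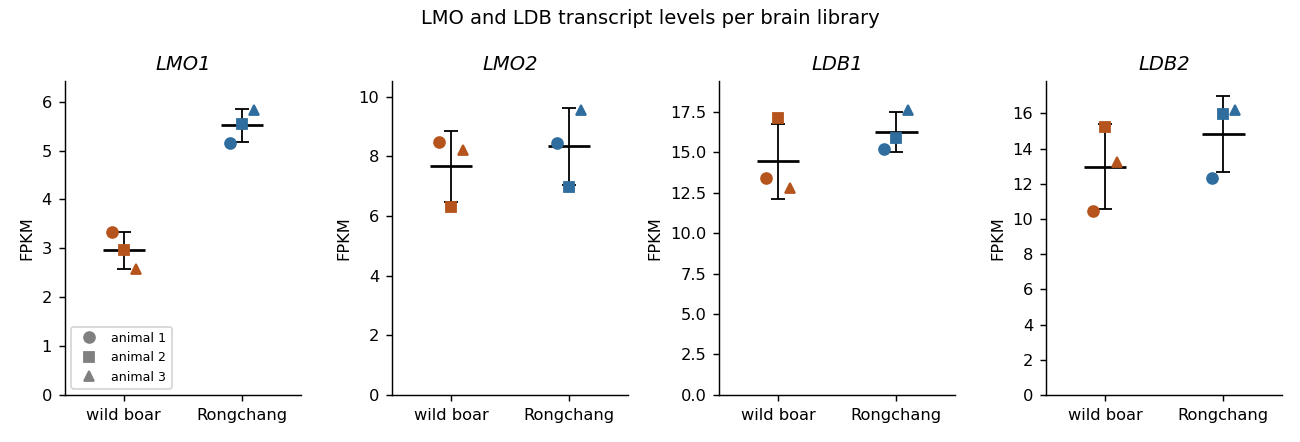
FPKM of LMO1, LMO2, LDB1 and LDB2 in each library, with wild boars left of Rongchang pigs, marker shape for the animal number, and bars for the mean ± SD (n = 3). LMO1, picked on this contrast, lies at 2.58 to 3.33 FPKM in wild boars and at 5.16 to 5.84 in Rongchang pigs, while the breeds overlap for the other genes.

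LMO2, which encodes a LIM-only protein required for blood and vessel formation, overlapped between the breeds. It was at 8.46, 6.31 and 8.20 FPKM in wild boars 1, 2 and 3, against 8.43, 6.98 and 9.56 FPKM in Rongchang pigs 1, 2 and 3. The lowest library of each breed was number 2. The fold change was −0.11 (SE 0.17, 95% interval −0.51 to 0.29), with an adjusted p of 0.903 (limma, Benjamini-Hochberg over all genes tested). The estimate had no stable sign: it was 0.048 after median scaling, 0.040 after quantile normalization, and 0.010 without wild boar 2. Relative to the median gene it was 0.025.

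LMO2 is expressed by endothelial and blood-forming cells, and the markers of those cells were therefore set beside it. Of 11 endothelial markers, 8 had a row and none of these was at 0 throughout. Their summed level was 47.2 to 54.1 FPKM in wild boars and 33.5 to 48.8 in Rongchang pigs. All 8 were tested and each had a fold change above 0, from 0.028 for ESAM to 0.44 for ENG, whereas 77.9% of all genes tested lay below 0. As markers of 1 cell type measured in the same 6 libraries, they are not 8 independent observations. The middle of the 8 fold changes was 0.20. After median scaling it became 0.34, while LMO2 stood at 0.048. None of the 8 passed at an adjusted p of 0.05 in limma. Only ERG was free of overlap between the breeds, as were 12.5% of all genes tested, counting either direction. Of 6 erythroid markers, 4 had a row, with a sum of 58.6 to 275 FPKM in wild boars and 68.0 to 190 in Rongchang pigs. Nearly all of the erythroid sum was the haemoglobin gene HBB, at 273, 57.7 and 212 FPKM in wild boars 1, 2 and 3 and at 137, 66.9 and 189 FPKM in Rongchang pigs 1, 2 and 3. HBB, like LMO2, was lowest in the library numbered 2 of each breed, while the erythroid transcription factor gene KLF1 was at or below 0.0785 FPKM in all 6. The part of blood or vessel content in the LMO2 values was not tested. In bulk tissue, fewer cells of a type and less RNA per cell cannot be told apart.

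LDB1 encodes the ubiquitous adaptor through which LMO and LIM-homeodomain proteins are assembled into complexes. It was at 13.4, 17.1 and 12.8 FPKM in wild boars 1, 2 and 3, against 15.2, 15.9 and 17.6 FPKM in Rongchang pigs 1, 2 and 3. Wild boars 1 and 3 lay below all Rongchang pigs, but wild boar 2 lay above all but Rongchang 3. The fold change was −0.17 (SE 0.16, 95% interval −0.54 to 0.20; limma adjusted p = 0.860). It was −0.29 without wild boar 2, with an adjusted p of 0.545, and −0.0060 after median scaling.

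LDB2, the paralog of LDB1, was at 10.4, 15.2 and 13.3 FPKM in wild boars 1, 2 and 3, against 12.3, 16.0 and 16.2 FPKM in Rongchang pigs 1, 2 and 3. Animal 1 was the lowest of each breed, and the breeds overlapped, although each wild boar lay below the Rongchang pig of its own number. The fold change was −0.19 (SE 0.19, 95% interval −0.62 to 0.24; limma adjusted p = 0.865). It was −0.05 without wild boar 1, −0.31 without Rongchang 1 and −0.30 without wild boar 2, and −0.025 after median scaling. With animal number as a block its SE was 0.0997 and its adjusted p 0.371 in limma.

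None of LMO2, LDB1 and LDB2 passed at an adjusted p of 0.05 in limma, and none did at an unadjusted p of 0.05. Among all 13152 genes tested, 0% passed as higher and 0.0076%, a single gene without a symbol, passed as lower. Fold changes of all 3 lay below 0, as did those of 77.9% of all genes tested. At an unadjusted p under 0.05 there were 789 genes (6%), of which 76 (0.578%) were higher and 713 (5.42%) lower in wild boars. That split depended on scaling, with 248 higher and 246 lower after median scaling and 252 higher and 242 lower after quantile normalization. The single lower call was lost without Rongchang 1, when 1 gene was called higher, and without Rongchang 3. Without wild boar 1 there were 4 lower calls. A block for animal number again gave 0 higher and 1 lower call. With it the unadjusted count was 185 higher and 2104 lower, or 719 higher and 660 lower once median scaling was added. With the block and no scaling, adjusted p in limma was 0.594 for LMO2, 0.497 for LDB1 and 0.371 for LDB2. Whether the fold change of LMO1 differs from theirs was not tested, because LMO1 was picked for its size.

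Ratios within a library compare the genes free of any scaling between libraries. LMO1 made up 28.3%, 31.9% and 24.0% of the summed FPKM of LMO1 and LMO2 in wild boars 1, 2 and 3, against 38.0%, 44.2% and 37.9% in Rongchang pigs 1, 2 and 3. All wild boars were below all Rongchang pigs, as they were for LMO1 itself, and this share is likewise given without a test. LMO2 was 2.54, 2.13 and 3.17 times the level of LMO1 in wild boars 1, 2 and 3, against 1.63, 1.26 and 1.64 times in Rongchang pigs 1, 2 and 3.

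Set against the adaptors, LMO1 amounted to 0.140, 0.0916 and 0.0992 of the summed FPKM of LDB1 and LDB2 in wild boars 1, 2 and 3, against 0.187, 0.174 and 0.172 in Rongchang pigs 1, 2 and 3. These ratios did not overlap between the breeds, and nothing is read from this, because LMO1 was picked on this contrast. The same ratio for LMO2 averaged 0.288 ± 0.0831 in wild boars and 0.269 ± 0.0450 in Rongchang pigs (SD, n = 3 each) and overlapped, with the library numbered 2 lowest in each breed. LMO1 and LMO2 summed to 11.8, 9.27 and 10.8 FPKM in wild boars 1, 2 and 3, against 13.6, 12.5 and 15.4 FPKM in Rongchang pigs 1, 2 and 3. The sum of the LDB genes was larger than that of these LMO genes in every library, at 27.4 ± 4.40 FPKM in wild boars and 31.1 ± 3.22 in Rongchang pigs. LMO3 and LMO4 are not in these sums, so the ratios describe only the genes measured.

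The balance between the adaptors was nearly even in both breeds. LDB2 made up 43.7%, 47.1% and 50.9% of the summed FPKM of LDB1 and LDB2 in wild boars 1, 2 and 3, against 44.8%, 50.1% and 47.9% in Rongchang pigs 1, 2 and 3. The means differed by −0.35 percentage points, less than the SD of 3.58 in wild boars and 2.67 in Rongchang pigs (exact permutation test over the 6 libraries, two-sided, p = 0.8; the smallest p this design allows is 0.1). The sign of that difference turned without wild boar 1 (1.40 points) and without Rongchang 2 (0.90 points).

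**Figure D2:**
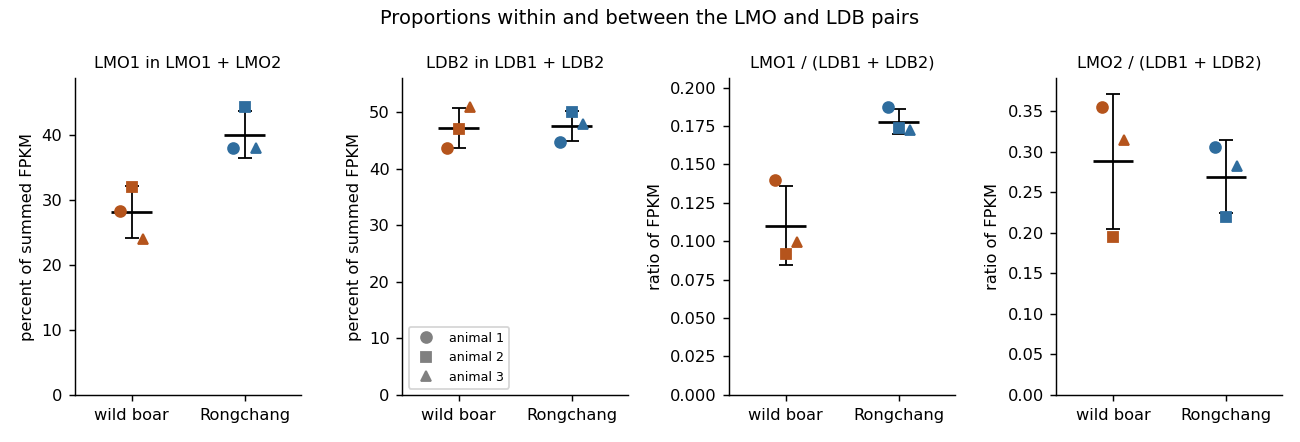
Share of LMO1 in LMO1 plus LMO2 and of LDB2 in LDB1 plus LDB2 (percent of summed FPKM), and FPKM of LMO1 and of LMO2 divided by the sum of LDB1 and LDB2, per library with the mean ± SD (n = 3). Both quantities with LMO1 lie lower in all wild boars (share 24.0% to 31.9%) than in all Rongchang pigs (37.9% to 44.2%), while the LDB2 share overlaps. LMO1 was picked on this contrast.

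Spread inside a breed was small for LMO1, with a coefficient of variation of 12.7% in wild boars and 6.15% in Rongchang pigs. Selection on a consistent difference favours such genes. For LMO2 it was 15.4% in wild boars and 15.5% in Rongchang pigs, for LDB1 16.1% in wild boars and 7.68% in Rongchang pigs, and for LDB2 18.6% in wild boars and 14.6% in Rongchang pigs. Within-breed SD on the log2 scale exceeded that of 40.8% of all genes tested for LMO2, 27.0% for LDB1 and 50.3% for LDB2. LDB1 was above 77.3% to 81.9% of listed genes in wild boars and above 79.4% to 80.4% in Rongchang pigs. LDB2 was above 74.3% to 80.0% in wild boars and above 75.5% to 79.5% in Rongchang pigs. LMO2 was above 61.4% to 69.8% in wild boars and above 62.2% to 68.3% in Rongchang pigs.

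Region markers were compared because LMO genes differ between brain regions and the region sampled is not stated. Of 5 hippocampal markers, 4 had a row, none at 0 throughout, and their sum was 6.93 to 9.07 FPKM in wild boars and 10.996 to 13.6 in Rongchang pigs, with no overlap. Among all genes tested, taken singly and not as sums, wild boars lay fully below Rongchang pigs for 11.4%. C1QL2, which encodes a synaptic protein of dentate granule cells, was at 2.58, 2.69 and 4.51 FPKM in wild boars 1, 2 and 3, against 5.94, 5.96 and 6.47 FPKM in Rongchang pigs 1, 2 and 3. It was the most abundant member of that sum, and its fold change of −0.77 (SE 0.19) did not pass (limma adjusted p = 0.724). MAN1A1 was also lower in every wild boar and did not pass (limma adjusted p = 0.789). The sum leans on C1QL2 and MAN1A1, and the lists were chosen with earlier results of these data known. Nothing is therefore read from the separation of the sum. PROX1 overlapped between the breeds, and ZBTB20 averaged 1.46 ± 0.561 FPKM in wild boars and 0.867 ± 0.521 in Rongchang pigs (SD, n = 3 each), overlapping with the mean on the other side. Summed markers of cortical projection neurons were 257 to 393 FPKM in wild boars and 281 to 390 in Rongchang pigs (4 of 5 measured), and those of inhibitory neurons 88.9 to 139 FPKM in wild boars and 110 to 128 in Rongchang pigs (3 of 3 measured). Striatal markers summed to 31.5 to 36.4 FPKM in wild boars and 29.9 to 40.5 in Rongchang pigs (5 of 5 measured), but single members parted the breeds in opposite directions. The enkephalin precursor gene PENK was at 15.5, 11.2 and 10.98 FPKM in wild boars 1, 2 and 3, against 6.91, 6.01 and 9.37 FPKM in Rongchang pigs 1, 2 and 3, with every wild boar higher (fold change 0.69, SE 0.20, limma adjusted p = 0.766). Wild boars lay fully above Rongchang pigs for 1.12% of all genes tested. The adenosine receptor gene ADORA2A, too low to be tested, was at 0.752, 0.584 and 0.758 FPKM in wild boars 1, 2 and 3, against 1.09, 0.909 and 1.27 FPKM in Rongchang pigs 1, 2 and 3, with every wild boar lower. DRD1 (fold change −0.27), PPP1R1B (−0.26) and the untested DRD2 had lower means in wild boars and overlapped between the breeds. Cerebellar markers summed to 3.002 to 4.28 FPKM in wild boars and 2.73 to 4.50 in Rongchang pigs (2 of 5 measured), and the summed markers of neurons, astrocytes and microglia overlapped between the breeds as well. The astrocyte sum was carried by the abundant GFAP and SLC1A3, and its low member ALDH1L1, a folate enzyme gene, was at 5.62, 3.83 and 2.84 FPKM in wild boars 1, 2 and 3, against 7.73, 6.78 and 7.61 FPKM in Rongchang pigs 1, 2 and 3. ALDH1L1 did not overlap between the breeds, and its fold change of −0.75 (SE 0.21) did not pass (limma adjusted p = 0.766). The part of regional makeup in the LMO1 values was not tested.

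The genes whose values ran most closely with LMO1 over the 6 libraries were found by Pearson correlation of log2(FPKM + 1) among 8537 other tested genes with a symbol. The first 5 were CCDC12 (r = 0.993), NECTIN1 (0.990), PGBD1 (0.988), CD8A (0.983) and CTH (0.983). CCDC12, a coiled-coil protein gene, was at 9.48, 8.43 and 8.34 FPKM in wild boars 1, 2 and 3, against 11.39, 11.97 and 12.37 FPKM in Rongchang pigs 1, 2 and 3, which is the same order of the 6 libraries as for LMO1. CTH, the gene of cystathionine gamma-lyase, shared that order as well, at 1.51, 1.46 and 1.42 FPKM in wild boars and 2.69, 2.93 and 3.31 FPKM in Rongchang pigs. For all 5 genes the wild boars lay below the Rongchang pigs, which sets most of a correlation over so few libraries, and 179 genes reached an r of 0.9. NECTIN1, at 0.420, 0 and 0 FPKM in wild boars 1, 2 and 3, and CD8A, at 0.484, 0.487 and 0.418 FPKM in them, were among the genes tested only through their Rongchang values, which favoured their place in this ranking. For LMO1's own relatives r was 0.33 for LMO2, 0.58 for LDB1 and 0.40 for LDB2 over the same 6 libraries. With the breed means removed it was 0.15 for LMO2, 0.35 for LDB1 and −0.13 for LDB2.

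Related genes were described through 4 lists, of which 66 of 102 genes had a row and 51 could be tested. None passed at an adjusted p of 0.05 (0 in limma), and at an unadjusted p under 0.05 there were 1 higher and 1 lower gene, against 6% of all genes tested.

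LIM-homeodomain genes encode transcription factors that use LDB proteins as LMO proteins do. Of 12 listed, 3 had a row and 2 could be tested. LHX2, a regulator of cortical and hippocampal development and the most abundant of them, was at 40.1, 40.1 and 47.6 FPKM in wild boars 1, 2 and 3, against 37.4, 42.0 and 33.4 FPKM in Rongchang pigs 1, 2 and 3 (fold change 0.18, limma adjusted p = 0.857). LHX6, which specifies cortical interneurons, was at 2.82, 5.27 and 4.36 FPKM in wild boars and at 4.54, 5.04 and 4.49 FPKM in Rongchang pigs (−0.17, adjusted p = 0.874). Both overlapped between the breeds. LHX1 stayed at or below 0.274 FPKM in every library and was not tested.

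DNA-binding and co-regulator partners of LMO proteins include the GATA and basic helix-loop-helix factors that LMO2 bridges in blood cells, and proteins that bind LMO4. Of 27 listed, 19 had a row and 12 were tested, with a median fold change of −0.08, or 0.05 relative to the median gene. The list's median turned positive after median scaling (0.07) and quantile normalization (0.06). GATA2, the GATA factor of blood progenitors and some inhibitory neurons, was at 4.19, 2.75 and 2.40 FPKM in wild boars 1, 2 and 3, against 2.17, 1.63 and 1.59 FPKM in Rongchang pigs 1, 2 and 3. The lowest wild boar exceeded the highest Rongchang pig, which held for 1.12% of all genes, and the fold change of 0.54 (SE 0.20) did not pass (limma adjusted p = 0.789).

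BRCA1, a DNA repair gene whose product binds LMO4, was at 0.966, 0.760 and 0.871 FPKM in wild boars 1, 2 and 3, against 1.15, 1.46 and 1.25 FPKM in Rongchang pigs 1, 2 and 3, without overlap (fold change −0.29, limma adjusted p = 0.789). It reached the level tested only through the Rongchang pigs, where it is higher, so nothing is read from its separation. The E-protein genes TCF3 and TCF12, which encode dimer partners of tissue-specific helix-loop-helix factors, had fold changes of −0.27 and −0.23 and overlapped. DEAF1, an LMO4-binding transcription factor and the most abundant of the list, averaged 42.6 ± 3.33 FPKM in wild boars and 51.0 ± 8.30 in Rongchang pigs (SD, n = 3 each), a fold change of −0.24 with an adjusted p of 0.848 in limma.

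Associates of the LDB and SSBP proteins cover SSBP4, the ubiquitin ligase RLIM that targets LDB proteins, and components of the Wnt-responsive complex in which LDB and SSBP proteins take part. Of 17 listed, 15 had a row and 13 were tested, with a median fold change of −0.15, or −0.015 relative to the median gene. SSBP4, the SSBP gene that could be measured, was at 22.7, 31.6 and 24.4 FPKM in wild boars 1, 2 and 3, against 29.0, 29.4 and 32.6 FPKM in Rongchang pigs 1, 2 and 3. Wild boars 1 and 3 lay below all Rongchang pigs and wild boar 2 did not (fold change −0.21, limma adjusted p = 0.857). How many of all genes share this pattern was not counted. The BCL9-binding factor gene PYGO1 had a fold change of −0.36, and CTNNB1, which encodes beta-catenin and was the most abundant of the list, averaged 78.3 ± 11.9 FPKM in wild boars and 95.8 ± 12.3 in Rongchang pigs (−0.29, adjusted p = 0.831 in limma). The corepressor gene TLE1 was at −0.19. No gene of the 13 tested was free of overlap between the breeds, against 12.5% of all genes tested in either direction. Nothing is read from this in so short a list.

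**Figure D3:**
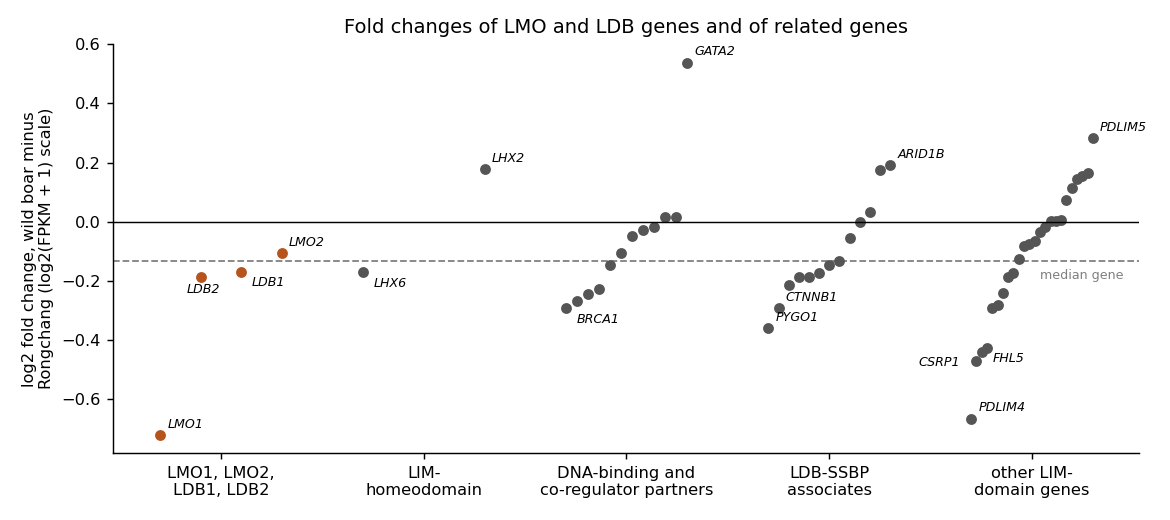
Fold changes (wild boar minus Rongchang, log2(FPKM + 1) scale) of LMO1, LMO2, LDB1 and LDB2 and of the tested genes of 4 related lists, 1 point per gene ordered by value, with the median of all genes tested as a dashed line at −0.13. LMO1 at −0.72, picked for its lower wild boar values, is the lowest point shown. PDLIM4 at −0.67 is nearest to it, and GATA2 at 0.54 is the highest.

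The last list held other genes with LIM domains, most of them encoding proteins of the actin cytoskeleton and of cell adhesions and outside the LMO and LDB complexes. Of 46 listed, 29 had a row and 24 were tested, with a median fold change of −0.07, which became 0.08 after both median scaling and quantile normalization. FHL5, a LIM-only coactivator of CREM in testis and not of the LMO family, was at 2.39, 2.51 and 2.47 FPKM in wild boars 1, 2 and 3, against 3.52, 3.75 and 3.81 FPKM in Rongchang pigs 1, 2 and 3. The breeds did not overlap and the spread within each was small, but the fold change of −0.44 (SE 0.13) did not pass over all genes (limma adjusted p = 0.766). Wild boars lay fully below Rongchang pigs for 1 of the 24 tested genes of this list, against 11.4% of all genes tested. CSRP1, a cysteine-rich LIM protein gene and the most abundant of the list, averaged 67.5 ± 16.3 FPKM in wild boars and 92.7 ± 13.3 in Rongchang pigs (SD, n = 3 each; fold change −0.47). PDLIM4 at −0.67 and the planar polarity gene PRICKLE2 at −0.43 overlapped between the breeds, and adjusted p was 0.789 for CSRP1 and PDLIM4 and 0.790 for PRICKLE2 in limma.

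**Figure D4:**
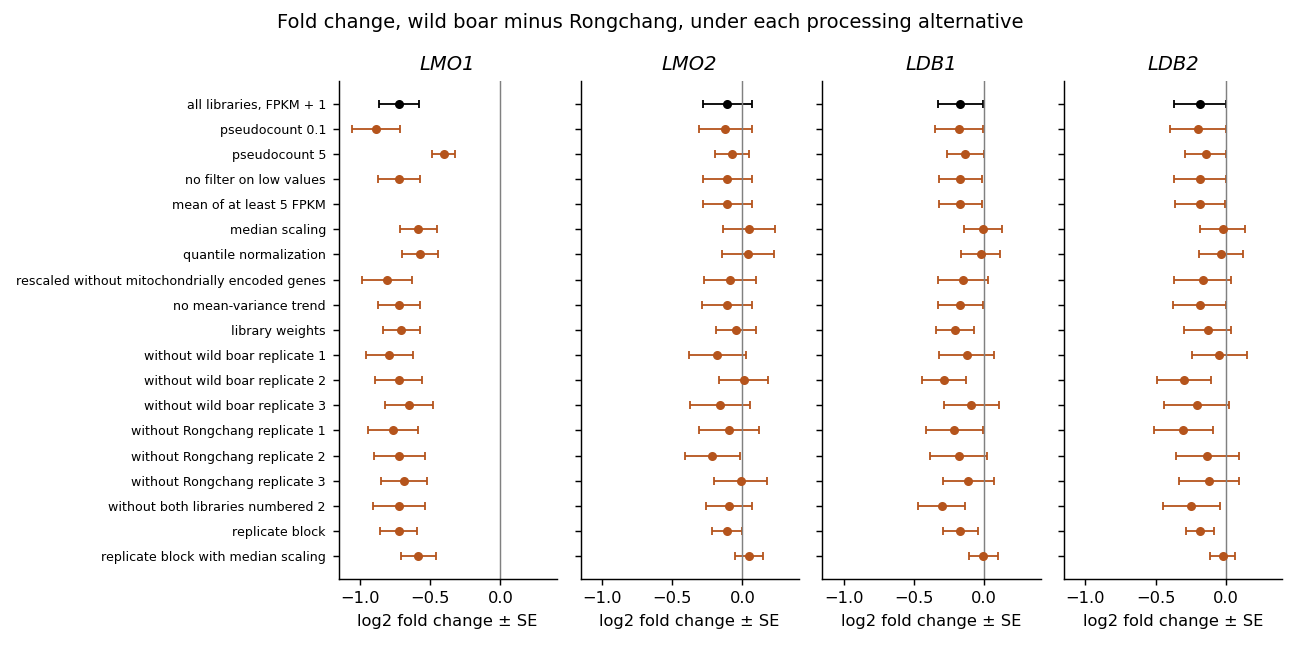
Fold change ± SE of LMO1, LMO2, LDB1 and LDB2 (wild boar minus Rongchang, log2 scale) with all libraries and a pseudocount of 1 in black, and under each alternative in colour. LMO1 stays between −0.88 and −0.40 in the 17 alternatives that keep it, while LMO2 lies on both sides of 0.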

How the data were processed

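The deposited table holds 1 FPKM value per gene and library, made by the authors. Per the submitters' processing notes they used Cuffdiff, Cufflinks 2.2.1 and TopHat2 2.0.11, in no stated role or order. The header names no unit, and FPKM was judged from the tools and the values. Poly(A) libraries were strand-marked with dUTP, per the labels' protocols. The sources used here do not give the genome build, annotation, strand setting or any scaling between libraries. No coordinates are therefore printed, and antisense overlaps are uncertain. Low values showed no common step between libraries (at most 23.7% of ratios in 1 window of 0.04 log2 units), so depth was not recovered and no interval for counting error is given.

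Symbols matched 10937 of 18225 identifiers (60.0%). Genes that reached 1 FPKM in 3 or more libraries were tested with limma 3.58.1 in R 4.3.3, two-sided with a mean-variance trend, on log2(FPKM + 1), which understates changes of low genes; p-values were adjusted by Benjamini-Hochberg over 13152 genes. The method was tested on simulated data with independent noise per library and planted changes larger than those of LMO1, LMO2, LDB1 and LDB2. The simulation did not cover smaller changes or libraries that deviate together by number. Members and lists were chosen with earlier results of these data known. From each list, up to 4 genes with the smallest unadjusted p and the most abundant gene were named. Shares and likeness rankings planned for LMO3, LMO4, SSBP2 and SSBP3 were not made. The labels number the animals 1 to 3 in each breed without saying what a number marks. After subtracting breed means, libraries of the same number correlated at 0.28, 0.59 and 0.37, and the other pairs at −0.45 to 0.12. Deviations cancel out within a breed, so high values for some pairs force low values for others, and these correlations are not independent. The numbers were taken to pair libraries from these data alone, and the block is an alternative. Nothing says more of the animals' origin, and the spread behind each p-value is that between these libraries, which may be technical.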

Additional observations from a re-analysis of the deposited data

How the results depend on the processing

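In 18 alternatives (17 for LMO1, which a minimum mean of 5 FPKM removes) LMO1, LDB1 and LDB2 kept fold changes below 0, and 0 of LMO2, LDB1 and LDB2 passed in limma (adjusted p from 0.371 to 1). LMO1 moved by more than its within-breed SD to −0.88 with a pseudocount of 0.1, −0.40 with 5, −0.58 with median scaling, with or without the replicate block, and −0.57 with quantile normalization; without each library in turn it was −0.79 to −0.65. LMO2 turned to 0.048 with median scaling, with or without the block, and to 0.040 with quantile normalization, and ran from −0.22 to 0.010 without each library. Over all genes, lower calls were 3 with a pseudocount of 0.1, 0 with a minimum mean of 5 FPKM, 4 after rescaling without mitochondrially encoded genes (higher calls 1), 0 without both libraries numbered 2, and 0 to 4 without each library (higher calls 0 to 1). The LDB2 share differed by 0.97 points without both libraries numbered 2, and by −2.18 to 1.40 without each library. The replicate block (animal number) left the calls at 0 higher and 1 lower and LMO1 at −0.72, and changed no other call. The causes were not tested. Depth is unknown, so how it limits LMO1, the lowest of the 4 genes, cannot be given.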

Other observations

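Some partners of LMO proteins were too low to be tested, and 2 of them were picked here after their values were seen. Wild boars lay fully below Rongchang pigs for these 2, as for 11.4% of all genes tested, and nothing is read from this. NEUROD1, a helix-loop-helix factor of neuronal differentiation, was at 0.302, 0.603 and 0.857 FPKM in wild boars 1, 2 and 3, against 1.06, 1.25 and 0.882 FPKM in Rongchang pigs 1, 2 and 3, without overlap. NHLH2, a neuronal helix-loop-helix gene, was at 0.165 FPKM in wild boar 1 and listed at 0 in wild boars 2 and 3, against 0.209, 0.232 and 0.564 FPKM in Rongchang pigs 1, 2 and 3. Its relative NHLH1 was listed at 0 in wild boars 2 and 3 and in Rongchang pigs 1 and 2. The GATA genes GATA3 and GATA6 stayed at or below 0.134 FPKM in all 6 libraries, and GATA2 was therefore the only GATA gene measured that reached the level tested.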
